A study of Mus musculus with 6 samples.

Results

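The PBS group comprised 3 of the 6 RNA sequencing libraries of the series: mouse primary lung fibroblasts at rest, kept in low serum and given only the vehicle. The group was taken from the labels, which name the treatment of each sample, and no measured value entered the choice. The cells came from wild-type C57BL/6 mice, were grown in DMEM with 10% fetal bovine serum, were held in 0.1% serum for 24 h and then received phosphate-buffered saline for another 24 h. The other 3 libraries received 1 µg/mL recombinant mouse CIRBP, cold-inducible RNA-binding protein, for the same 24 h and were not used here. The labels do not give the age or sex of the mice, the passage of the cells, or whether the 3 libraries came from separate animals or cultures, so the spread between them may be biological or technical. All libraries were sequenced in a single batch.

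Fibroblasts are the cells that lay down and remodel the connective tissue of the lung. They secrete fibrillar collagens and the glycoproteins, proteoglycans and crosslinking enzymes that turn them into fibres, and they read their surroundings through integrins, growth factor receptors and cytokine receptors. Serum starvation withdraws growth factors, which slows division and sets a common baseline before a treatment. Growth on plastic and serum are known to push lung fibroblasts towards a contractile state, the myofibroblast, marked by smooth muscle actin.

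Levels are given as CPM, a gene's count scaled to the same library total over all genes in the table, always in the order PBS 1, PBS 2 and PBS 3. The 3 libraries held 12172622, 12105584 and 14262375 counts. Since long genes collect more counts, an order by CPM is an order by share of counts, and levels of different genes are otherwise compared as CPM per kilobase of exon. A gene was called expressed with at least 1 CPM in each library, which is at least 13 counts. A count of 0 allows up to 3 counts, or 0.210 to 0.248 CPM in these libraries, and such limits cover counting error only. Of the 21936 protein-coding genes, 12028 were expressed (54.8%), and 5764 had no count in any of the 3 libraries. Protein-coding genes took 96.3%, 95.9% and 96.1% of the counts, mitochondrial genes 1.38%, 1.21% and 1.35%, and ribosomal protein genes 3.50%, 3.41% and 3.15%. The 10 most abundant protein-coding genes took 7.51%, 7.30% and 7.07% of all counts in each library, and the 100 most abundant 21.7%, 20.9% and 21.3%.

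All 13 genes of the fibroblast marker list were expressed. Col1a1, a chain of type I collagen (chromosome 11, 94936224 to 94953042 on GRCm38), was at 11610, 11171 and 9209 CPM. Its partner chain Col1a2 (chromosome 6) was at 8722, 9516 and 8368 CPM, and Col3a1, type III collagen (chromosome 1), was at 6451, 7132 and 5317 CPM. Fn1, fibronectin (chromosome 1), was at 7458, 8022 and 8426 CPM. These 4 genes were among the 7 most abundant protein-coding genes in mean CPM and differed by less than 1.5-fold between libraries. Acta2, smooth muscle actin (chromosome 19), was at 2687, 1333 and 1131 CPM, with PBS 1 standing above both others. Both platelet-derived growth factor receptors were present, Pdgfra at 412, 434 and 445 CPM and Pdgfrb at 452, 561 and 581 CPM. Lum, lumican, was at 1.40, 1.32 and 1.89 CPM.

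Epithelial and erythroid markers were mostly at or near 0, whereas some endothelial, leukocyte and mesothelial markers were expressed. Of 11 pericyte and smooth muscle markers, described further below, 6 were expressed. In the epithelial list 1 of 14 genes was expressed, and the 14 genes together summed to 3.12, 4.96 and 3.93 CPM. The defining genes Nkx2-1, Sftpb, Sftpd, Sftpa1 and Krt8 had no count, and Sftpc had 1 count in all. Among 10 endothelial genes 2 were expressed, the receptors Kdr at 11, 14.4 and 17 CPM and Tek at 7.31, 9.0 and 9.4 CPM, whereas Cldn5, Emcn and Tie1 had no count and Pecam1 had 12 counts in all. The leukocyte list had 7 of 16 genes expressed and summed to 121, 157 and 141 CPM. Lyz2, lysozyme of myeloid cells, made up most of that sum at 91.6, 126 and 114 CPM, beside Csf1r at 11.3, 10.4 and 8.06 CPM, Cd68 at 6.08, 7.68 and 7.78 CPM and Ptprc, the pan-leukocyte gene, at 0.493, 2.07 and 1.19 CPM. Tyrobp, at 3.12, 3.47 and 2.66 CPM, Itgax, at 3.29, 3.06 and 2.52 CPM, Fcer1g and Adgre1 were expressed as well. Cd3e, Ms4a1, Nkg7 and S100a9 had no count. In bulk libraries fewer cells of a type and less RNA per cell cannot be told apart, so these sums give no cell number. Of 9 mesothelial genes 3 were expressed, led by Msln at 7.31, 3.47 and 5.26 CPM. The 5 erythroid genes were not expressed; the alpha and beta globin genes have near-identical copies, and how reads that match several genes were counted is not given in the sources used here, so their 0 is uncertain. All 4 Y-linked genes listed were expressed, such as Ddx3y at 98.8, 80.9 and 93.6 CPM, and Xist, the RNA of the inactive X chromosome, was at 0.329, 0.496 and 0.210 CPM.

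**Figure D1:**
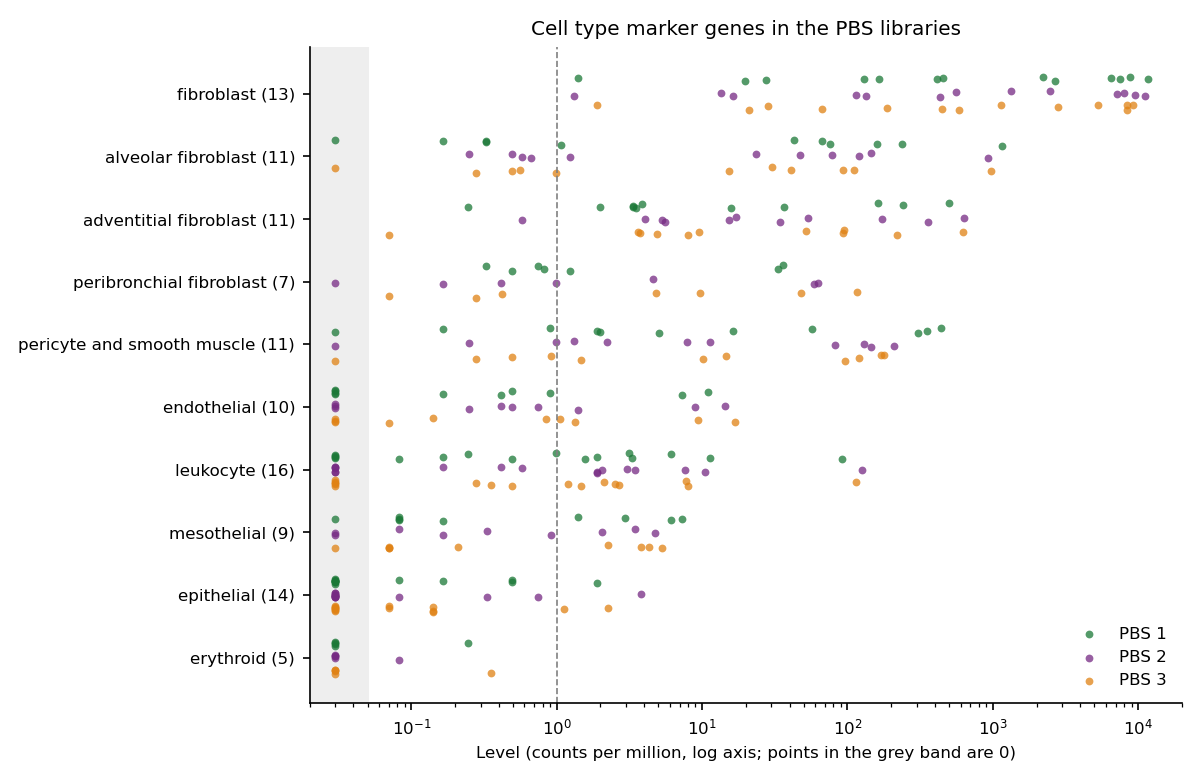
Level of each marker gene in CPM (x axis, log scale) for 10 marker lists (y axis, number of genes in parentheses), with 1 point per gene and library and the 3 libraries coloured; the dashed line marks 1 CPM and the grey band holds genes at 0. Fibroblast markers reach 11610 CPM, whereas epithelial and erythroid markers lie almost entirely under 1 CPM in all 3 libraries.

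Genes reported for fibroblast subsets of the lung were unevenly present. In the alveolar fibroblast list 6 of 11 genes were expressed: Tcf21, a transcription factor of that lineage, was at 66.9, 47.2 and 30.3 CPM and Npnt, nephronectin, at 42.9, 23.5 and 15.4 CPM, while Ces1d, Fgfr4, Inmt, Slc7a10 and Wnt2 were not expressed. The adventitial list had 10 of 11 genes expressed. Pi16, a marker of that compartment, was at 1.97, 15.4 and 9.54 CPM, and Dpt, dermatopontin, at 15.7, 34.3 and 94.1 CPM, so that both differed by more than 5-fold between libraries. Of 7 peribronchial genes 3 were expressed, Fgf18 at 33.0, 59.0 and 47.9 CPM, Aspn at 35.9, 62.9 and 117 CPM and Lgr6 at 1.23, 4.63 and 9.75 CPM. PBS 1 was the highest library for 5 of the 6 alveolar genes with a mean of at least 1 CPM, and the lowest for 8 of the 10 adventitial genes and for all 4 peribronchial genes. Over all protein-coding genes PBS 1 was highest for 32.7% and lowest for 43.3%. In PBS 1 the median log2 ratio to the mean of the other libraries was 0.79 for the alveolar, -0.47 for the adventitial and -1.58 for the peribronchial list, beside -0.05 over all protein-coding genes.

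The most abundant messages were those of matrix and translation. After Col1a1, Col1a2 and Fn1, the order by mean CPM ran through Thbs1, thrombospondin 1, at 7385 ± 649 CPM (SD, n = 3), the translation elongation factor Eef1a1 at 7018 ± 361 CPM, the collagen-binding glycoprotein Sparc at 6658 ± 669 CPM, Col3a1, Bgn, biglycan, at 5943 ± 826 CPM, Col5a2 at 5910 ± 1586 CPM and Fbln2, fibulin 2, at 5723 ± 1043 CPM. These neighbours were closer to each other than their spread between libraries, from Bgn to Fbln2 in particular. The next 10 were mt-Co1, Lox, Eef2, Sptbn1, Gsn, App, Timp2, Lrp1, Fbn1 and Vim. Per kilobase, the mitochondrial gene mt-Co1 came first at 3556 ± 194 CPM per kilobase, followed by Eef1a1 at 2815 ± 145, the ribosomal protein gene Rplp1 at 1836 ± 120, Sparc at 1758 ± 177, mt-Cytb at 1630 ± 123 and Col1a1 at 1625 ± 195 CPM per kilobase. Eef2, Mgp, mt-Nd1 and Thbs1 completed the first 10, and 8 of the 10 remained when the longest transcript was taken as the length. Mgp, matrix Gla protein, an inhibitor of calcification, was at 1670, 1708 and 1152 CPM.

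Of the 181 matrix genes listed, 146 were expressed (80.7%), beside 54.8% of all protein-coding genes. Of the 376 genes that the deposited annotation places in the extracellular matrix, 228 were expressed (60.6%), nearer to that background. Collagen genes of all types took 4.38%, 4.24% and 3.64% of all counts. Among fibrillar collagens, which form the tensile fibres, 9 of 11 were expressed. Per kilobase, Col1a1 led at 1625 ± 195, before Col1a2 at 714 ± 47.3, Col3a1 at 642 ± 93.4 and Col5a2 at 616 ± 165 CPM per kilobase, the last 3 overlapping in their spread. The type I chains are incorporated into the same trimer, and the ratio of Col1a1 to Col1a2 per kilobase was 2.52, 2.22 and 2.08. It was 1.08 in the mean when the longest transcript was used as the length, so its size rests on the gene model. Col5a2 was at 7734, 5139 and 4858 CPM, highest in PBS 1. Col11a1, a minor fibril chain known from cartilage, was at 683, 596 and 806 CPM, whereas its cartilage partner Col2a1 had 10 counts in all and Col24a1 had 12.

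Basement membrane and other collagens were present at lower levels. In the list of 33 other collagens 21 were expressed, led per kilobase by the paired type IV chains Col4a1 at 230 ± 33.7 and Col4a2 at 219 ± 31.8 CPM per kilobase. These 2 genes lie head to head on chromosome 8, and their ratio per kilobase was 1.05, 1.06 and 1.05. Col6a1, a chain of the beaded microfibrils, was at 604, 855 and 679 CPM. Col15a1 was at 3.37, 17.1 and 3.72 CPM, so that PBS 2 stood apart from both others. Col9a1, Col25a1 and Col26a1 had no count. Of 15 basement membrane glycoproteins 13 were expressed, with Nid1, nidogen 1, at 1685, 1919 and 2332 CPM and Hspg2, perlecan, at 1728, 2089 and 2282 CPM. Among laminin chains Lamb1 was at 898, 911 and 865 CPM, close together in all 3 libraries, while the epithelial chain Lama3 had 23 counts in all.

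Adhesive and matricellular genes, which tune how cells hold and sense the matrix, had 20 of 25 members expressed. Sparc, Thbs1, Igfbp7 and Fn1 led per kilobase. Ccn2, a matricellular gene induced by TGF-beta and by stretch, was at 790, 503 and 315 CPM, and the matricellular gene Ccn4 was at 400, 196 and 160 CPM. Tnc, tenascin C, was at 1404, 605 and 752 CPM. These 3 were highest in PBS 1. Tgfbi, in contrast, was at 2.38, 11.7 and 16.5 CPM and lowest in PBS 1, and Tnxb, tenascin X, was at 136, 386 and 338 CPM. Vtn, vitronectin, and Thbs4 had no count, and Tnr had 1.

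All 18 elastic fibre genes were expressed. Fbln2 led per kilobase at 898 ± 164, before Efemp1 at 318 ± 125 and Fbln5, which helps assemble elastin, at 265 ± 66.8 CPM per kilobase. Eln, elastin itself, was at 254, 324 and 483 CPM. PBS 1 was the lowest library for 14 of the 18, beside 43.3% of all protein-coding genes. Fbn1, the fibrillin of adult microfibrils, was at 2609, 2331 and 2569 CPM, and its fetal counterpart Fbn2 at 28.4, 17.4 and 5.61 CPM. In the annotation 20.1% of the Fbn1 exon bases are shared with other genes.

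The proteoglycan list was dominated by Bgn. Of 18 genes 10 were expressed. Bgn was at 5107, 5963 and 6758 CPM, the related small leucine-rich proteoglycan Dcn, decorin, at 131, 114 and 67.0 CPM, and Lum as given above. Per kilobase Bgn exceeded Dcn 37.5-fold, 50.2-fold and 96.6-fold in the 3 libraries. Ogn, osteoglycin, was at 678, 945 and 1006 CPM and Vcan, versican, at 93.9, 97.5 and 95.1 CPM. Kera and Spock1 had no count, and Hapln1 and Ncan had 7 and 2 counts in all.

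Of 20 enzymes that mature collagen 19 were expressed, and 0 of 19 differed 2-fold or more between libraries, the fewest of the matrix lists. The share was 9.69% of all protein-coding genes with a mean of at least 1 CPM. It was 2.62% of those with a mean of 100 to 1000 CPM, so a count of 0 in a list this small is not far from the background. Lox, which crosslinks collagen and elastin, was at 5009, 3757 and 4268 CPM, and Serpinh1, the collagen chaperone, at 1988, 1711 and 1281 CPM. P4hb, Pcolce and Loxl1 followed per kilobase. Matrix proteases had 27 of 30 members expressed. Ctsb and Ctsl, lysosomal cathepsins, led at 197 ± 15.1 and 111 ± 16.5 CPM per kilobase, and Mmp14, a membrane-bound collagenase, followed at 92.1 ± 10.8. Mmp2, the gelatinase that Mmp14 activates, was at 118, 357 and 240 CPM, lowest in PBS 1. Mmp9 and Mmp10 were not expressed. On the side of inhibitors, Timp2 was at 2473, 3086 and 4160 CPM and Timp3 at 1411, 1647 and 1317 CPM. Timp2 exceeded Mmp2 per kilobase 18.1-fold, 7.47-fold and 15-fold.

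**Figure D2:**
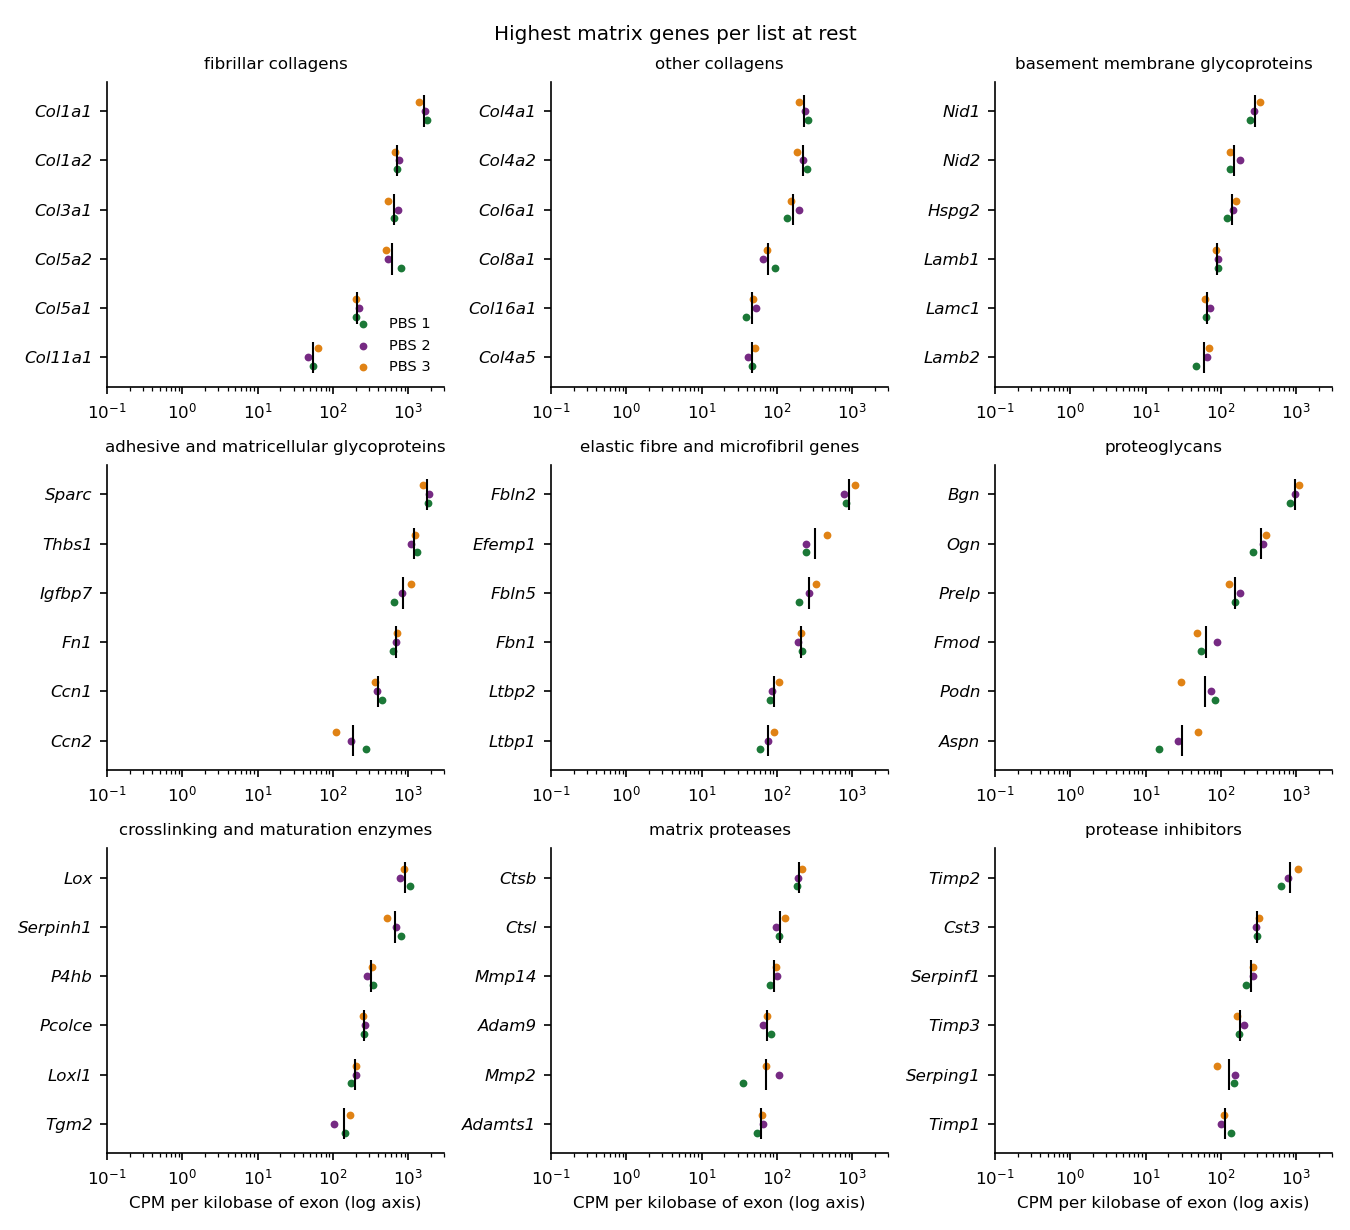
CPM per kilobase of exon (x axis, log scale) of the 6 highest genes in each of 9 matrix lists, with 1 coloured point per library and a black bar at the mean. Levels fall over a range from Sparc at 1758 to Aspn at 30.5 CPM per kilobase, and the 3 libraries lie close together except for genes such as Mmp2, Ccn2 and Podn.

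Of 290 receptor genes listed, 208 were expressed (71.7%), beside 54.8% of all protein-coding genes. The deposited annotation marks 1174 protein-coding genes with a receptor activity other than odorant or pheromone. Of these, 392 were expressed (33.4%), a smaller share than over all protein-coding genes. The highest receptor per kilobase in the lists was Itgb1, the common beta chain of collagen and fibronectin receptors, at 439 ± 83.8 CPM per kilobase, with 2130, 1446 and 1801 CPM. Itgb5 followed at 177 ± 14.6, and the leading alpha chain was Itga8, a partner of Itgb1, at 503, 312 and 379 CPM. Itgb1 exceeded Itga8 per kilobase 7.64-fold, 8.36-fold and 8.59-fold. The fibronectin receptor chain Itga5 was at 238, 168 and 139 CPM. The leukocyte chain Itgal had 8 counts in all.

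Receptor tyrosine kinases had 30 of 39 members expressed. Axl, the receptor of Gas6, led at 125 ± 11.5 CPM per kilobase, and its ligand Gas6 was at 143, 138 and 137 CPM in the same libraries. Pdgfrb followed at 97.0 ± 12.7, the collagen receptor Ddr2 at 78.9 ± 9.48, Egfr at 51.5 ± 2.93, Fgfr1 at 45.5 ± 6.10, Ddr1 at 44.6 ± 2.55 and Pdgfra at 42.9 ± 1.68 CPM per kilobase. Egfr to Pdgfra lay within about 1 SD of Fgfr1. Tie1 had no count, and Ret and Fgfr4 had 1 and 3 counts in all.

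TGF-beta is the chief inducer of the myofibroblast state, and 12 of its 13 listed receptors and those of BMPs were expressed. Tgfbr2, which binds the ligand, was at 294, 289 and 293 CPM, and Tgfbr1, the signalling partner, at 44.4, 42.8 and 35.6 CPM. Tgfbr2 exceeded Tgfbr1 per kilobase by 5.75 ± 0.716-fold. Acvr1c had 8 counts in all. Of 23 ligands and antagonists 21 were expressed. Tgfb3 was at 243, 198 and 172 CPM and exceeded Tgfb1 by 13.4 ± 1.96-fold and Tgfb2 by 8.84 ± 1.69-fold per kilobase. With the longest transcript as the length the ratio to Tgfb1 was 6.82. The BMP antagonist Grem1 was at 720, 549 and 663 CPM and the activin subunit gene Inhba at 240, 164 and 136 CPM.

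In the cytokine receptor list 30 of 44 genes were expressed. Il6st, the shared signalling chain gp130 of the IL-6 family, led at 131 ± 17.1 CPM per kilobase, and was at 1662, 1290 and 1406 CPM. The ligand-binding chain Il6ra was far lower, so that Il6st exceeded it 92.7-fold, 65.4-fold and 127-fold per kilobase. Osmr, the oncostatin M receptor, was at 421, 424 and 263 CPM. Tnfrsf1a, the main TNF receptor, was at 180, 201 and 165 CPM and the lymphotoxin receptor Ltbr at 91.9, 96.5 and 84.9 CPM. Csf3r and Il22ra1 had no count.

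The title of the study names CIRBP, TLR2, TLR4 and IL-6. At rest Cirbp was at 65.5, 85.2 and 64.7 CPM, and Tlr4, the endotoxin receptor, at 41.3, 40.7 and 37.8 CPM. Tlr2, a receptor of bacterial lipoproteins, was at 3.04, 1.73 and 3.65 CPM, and Il6 at 4.52, 1.82 and 3.09 CPM. Tlr4 exceeded Tlr2 per kilobase 7.37-fold, 12.7-fold and 5.62-fold. Of its partners, Ly96, which presents endotoxin to Tlr4, was at 4.35, 4.54 and 4.56 CPM and Cd14 at 5.09, 6.86 and 4.84 CPM. Tlr4 exceeded Ly96 per kilobase 1.74-fold, 1.65-fold and 1.52-fold. Among 30 innate pattern receptors and partners 16 were expressed, led per kilobase by the cytosolic RNA sensor gene Ddx58 and the peptidoglycan sensor gene Nod1. Tlr11, Tlr12, Nod2 and Clec4e had no count.

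Of the G-protein-coupled receptors 30 of 54 were expressed. F2r, the thrombin receptor, led at 84.2 ± 21.1 CPM per kilobase, before Adgra2 at 43.4 ± 4.19 and Lpar1, a receptor of lysophosphatidic acid, at 25.2 ± 1.38. No count was found for Ccr2, Ccr7, Cxcr2, Cxcr3, F2rl2, Ackr2 and Adora3, and Cxcr4 had 7 counts in all. In the list of WNT, Hedgehog and Notch receptors 20 of 24 genes were expressed. This list also holds the lipoprotein receptor gene Lrp1, which led it at 2748, 3143 and 3395 CPM. The highest frizzled genes were Fzd2, Fzd1 and Fzd7 at 51.2 ± 4.83, 39.5 ± 8.88 and 37.7 ± 1.83 CPM per kilobase. All 28 surface glycoprotein genes were expressed, with Cd81, Cd63 and the glypican gene Gpc4 highest per kilobase. Gpc3, another glypican, was at 160, 145 and 40.9 CPM and lowest in PBS 3. Nuclear receptors had 23 of 33 members expressed, and the early response gene Nr4a1 led at 176, 183 and 356 CPM. The glucocorticoid receptor Nr3c1 was at 193, 191 and 188 CPM.

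Of 133 secreted signals 87 were expressed (65.4%), beside 54.8% of all protein-coding genes. Csf1, the growth factor of macrophages, led the cytokines at 1445, 1114 and 1047 CPM, and Cxcl12, a chemokine of stromal cells, was at 508, 609 and 553 CPM. Several inflammatory cytokines were near the floor: Tnf, Il1b, Ifnb1, Saa3 and Csf3 had 7, 3, 3, 6 and 8 counts in all, and Csf2, Cxcl3, Cxcl9, Lcn2, Osm and Ccl19 had none. Ccl2, a monocyte chemokine, was at 10.4, 7.27 and 12.6 CPM. Vegfd, a lymphatic growth factor, was at 694, 784 and 681 CPM and exceeded Vegfa 4.56-fold, 7.15-fold and 8.86-fold per kilobase. Fgf7, a growth factor for lung epithelium, was at 103, 115 and 108 CPM. Igf2 had 5 counts in all and Areg none. All 5 IGF-binding protein genes listed, Igfbp2 to Igfbp6, were expressed, with Igfbp5 at 1364, 1257 and 930 CPM. Among WNT ligands and modulators 11 of 27 were expressed, led by Dkk3, Rspo3 and Wnt5a, and Wif1, Wnt1 and Sfrp5 had no count.

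The transcription factor list had 145 of 192 genes expressed (75.5%), beside 54.8% of all protein-coding genes. Of the 1080 genes that the deposited annotation marks as DNA-binding transcription factors, 630 were expressed (58.3%), near that background. The 10 highest of these annotated genes per kilobase were Atf5, Fos, Junb, Egr1, Klf4, Jund, Pcbp1, Nfix, Atf4 and Nfe2l1. Atf5, a factor of the amino acid response, was at 575, 719 and 479 CPM. Early response genes, which are transcribed within minutes of a stimulus, had 14 of 16 members expressed. Fos was at 364, 393 and 551 CPM, Egr1 at 509, 638 and 752 CPM and Junb at 319, 403 and 533 CPM. Fosb was at 95.8, 112 and 431 CPM, so that PBS 3 stood about 4-fold above both others. PBS 3 was the highest library for 9 of the 14, beside 36.4% of all protein-coding genes. Jund shares 52.6% of its exon bases with other genes, and the strand setting of the counting is not given.

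Factors of lung mesenchyme were present, with 17 of 22 expressed. Nfix led at 102 ± 15.2 CPM per kilobase. Foxf1, a factor of lung mesenchyme downstream of Hedgehog, was at 58.9, 54.4 and 67.6 CPM, Tbx4 at 89.6, 75.7 and 76.8 CPM and Tbx5 at 40.5, 52.5 and 49.6 CPM. Heyl had 4 counts in all. Of the 50 mesenchymal and EMT factors 39 were expressed, led by Aebp1, Klf4, Creb3l1, Sox4 and Osr1, and Alx1 had no count. Twist1 was at 28.3, 38.7 and 32.3 CPM and Prrx1 at 325, 354 and 393 CPM. All 8 SMAD genes, the mediators of TGF-beta and BMP, were expressed, led by Smad3 at 27.2 ± 3.58 and Smad4 at 26.8 ± 1.02 CPM per kilobase. In the NF-kB, STAT, IRF and C/EBP list 21 of 24 were expressed, led by Cebpb, Stat3, Stat2 and Stat6. In the SRF, MRTF, YAP and TEAD list 9 of 10 genes were expressed, and Myocd, the cofactor of vascular smooth muscle, had 9 counts in all.

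HOX genes encode the positional identity of a cell along the body axis, are grouped in the clusters A to D, and are numbered from the anterior to the posterior end. Of 39 genes 16 were expressed and 14 had no count. Cluster B summed to 346, 359 and 394 CPM, cluster A to 125, 130 and 148 CPM, cluster C to 2.22, 2.48 and 4.21 CPM and cluster D to 0.657, 0 and 0.491 CPM. In cluster A the genes Hoxa2 to Hoxa7 were expressed and Hoxa9 to Hoxa13 were not. In cluster B the genes Hoxb2 to Hoxb9 were expressed, and Hoxb1 and Hoxb13 had no count. Hoxc4 was the only expressed gene of cluster C, at 1.56, 1.49 and 3.44 CPM. Hoxa5, known for its role in lung development, led per kilobase at 32.5 ± 2.96, before Hoxb3 at 28.2 ± 3.04 and Hoxb4 at 24.5 ± 1.15 CPM per kilobase. Hoxa5 itself was at 62.3, 54.9 and 65.8 CPM. In the annotation 52.9% of Hoxb3 exon bases are shared with other genes, so its level is uncertain.

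**Figure D3:**
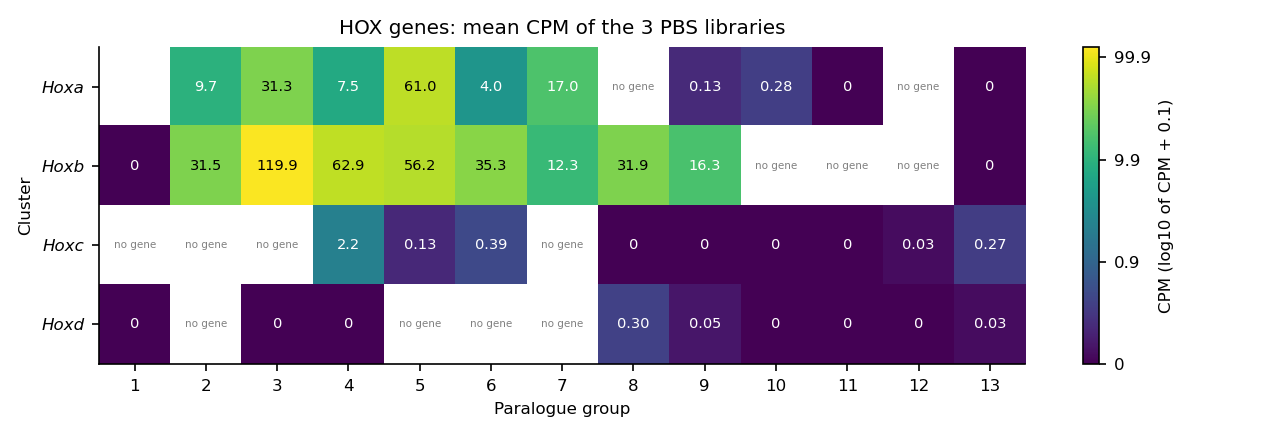
Mean CPM over the 3 PBS libraries of HOX genes, by cluster (rows) and paralogue group (columns), coloured on a log scale with the value printed; boxes marked as having no gene have none in the mouse, and a blank box is not shown. The expressed genes fill paralogue groups 2 to 7 of Hoxa and 2 to 9 of Hoxb, and nearly all of Hoxc and Hoxd lies under 1 CPM.

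The spread between the 3 libraries was larger than counting error for most genes. Over the 12467 protein-coding genes with a mean of at least 1 CPM the median CV, the SD over the mean, was 12.8%. Among genes with a mean of 10 to 100 CPM the median CV was 10.9%, beside 4.80% from counting alone, and for 100 to 1000 CPM it was 9.35% beside 2.13%. The common biological coefficient of variation estimated with edgeR was 0.176. The highest library was at least 2-fold the lowest for 1208 of the 12467 genes (9.69%), and for 322 of those with a mean of at least 10 CPM. The count was 377 without PBS 1, 770 without PBS 2 and 648 without PBS 3, and without PBS 1 the median CV was 8.42%. Chi-square per degree of freedom between the counts of 2 libraries was 20.9 for PBS 1 and PBS 2, 25.4 for PBS 1 and PBS 3 and 14.2 for PBS 2 and PBS 3, so that no pair agreed within sampling noise.

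PBS 1 stood furthest from the others by count of genes. It was at least 1.5-fold above both others for 478 genes (3.83%) and at least 1.5-fold below both for 647 (5.19%). The corresponding shares were 1.71% and 1.83% for PBS 2 and 2.88% and 2.00% for PBS 3. Among genes with a mean of at least 10 CPM the largest ranges included those of Tgfbi, Angptl7, Dpt, Fbn2, Tmem158, Fam177a2, Ptx3, Fosb, Rspo2, Stc1, Gpc3, Fmo2 and Sumo2. Angptl7, a secreted angiopoietin-like protein, was at 9.78, 44.6 and 65.6 CPM, low in PBS 1. Stc1, stanniocalcin 1, was at 23.5, 81.0 and 104 CPM, also low in PBS 1. Ptx3, a soluble pattern receptor, was at 19.3, 9.91 and 4.21 CPM. Sumo2, Fam177a2, Ifit3, Lyz2 and Hspa1b each have near-identical copies elsewhere in the genome, so their values are uncertain where reads could be split. The steadiest genes with a mean of at least 100 CPM were Ppp2r5c, Prpf19, Atxn7l3b, Antxr2 and Wdr26, of which Ppp2r5c, a regulatory subunit of protein phosphatase 2A, was at 136, 135 and 136 CPM.

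**Figure D4:**
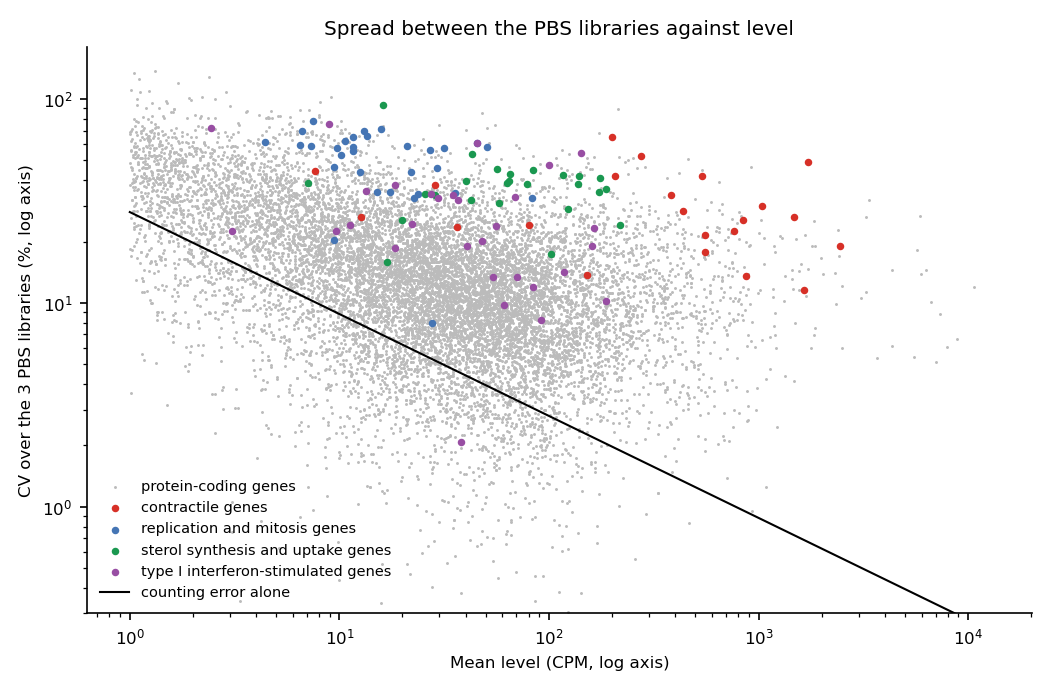
CV over the 3 PBS libraries in percent (y axis, log scale) against mean CPM (x axis, log scale) for protein-coding genes with a mean of at least 1 CPM, with 4 gene lists coloured and the CV expected from counting error alone as a line. Most genes lie above the line, and many replication, sterol and contractile genes lie towards the upper edge of the cloud. Others lie within it, such as Cdk2 at a CV of 7.99% and Cald1 at 11.6%. The replication gene Mcm7, at 0.280%, falls under the lower end of the axis and is not shown.

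Contractile genes, which build the actin and myosin apparatus of smooth muscle and myofibroblasts, were among those higher in PBS 1. Of 24 genes 22 were expressed and summed to 18553, 12233 and 12075 CPM. PBS 1 was the highest library for 20 of the 22, beside 32.7% of all protein-coding genes, and stood at least 1.5-fold above both others for 9, beside 3.83%. Actg2, enteric smooth muscle actin, was at 350, 131 and 119 CPM, Myh11, smooth muscle myosin, at 441, 207 and 177 CPM, and Cnn1, calponin, at 307, 145 and 169 CPM. In each of these PBS 1 was more than 1.5-fold above the other libraries, as it was in Acta2. Tagln, transgelin, was at 1325, 710 and 1088 CPM, with PBS 2 lowest, and 67.9% of its exon bases are shared with other genes. The tropomyosin genes, which stabilise actin filaments, were highest in PBS 1 too. Tpm1 was at 1926, 1248 and 1251 CPM, Tpm2 at 578, 343 and 391 CPM and Tpm4 at 787, 477 and 347 CPM. Myl9, the regulatory light chain of smooth muscle myosin, was at 530, 300.3 and 313 CPM, Actn1, alpha-actinin, at 1093, 721 and 719 CPM and Acta1, skeletal actin, at 46.3, 30.5 and 32.6 CPM. The highest library exceeded the lowest by 1.24-fold for Cald1 to 1.62-fold for Des among Csrp1, Flna, Cnn2, Cald1, Vcl, Mylk, Smtn, Lmod1 and Des, a range that also holds Acta1, Actn1 and Tpm1. Ldb3 was at 11.5, 4.96 and 6.59 CPM, whereas Synpo2, at 24.8, 20.3 and 40.9 CPM, was highest in PBS 3. Actc1, the cardiac actin, and Pln, phospholamban, were not expressed. In the same libraries the list of pericyte and smooth muscle markers, which shares 4 of its 11 genes with the contractile list, summed to 1182, 589 and 589 CPM. The 4 shared genes made up 1115, 495 and 476 CPM of this, and the 7 others summed to 67.3, 94.5 and 114 CPM, lowest in PBS 1. Among these 7, Notch3 was at 57.3, 81.8 and 95.8 CPM and Cspg4 at 5.09, 7.93 and 14.7 CPM. Rgs5 was at 0.904, 1.32 and 1.47 CPM. Notch3, Cspg4 and Rgs5 were thus lowest in PBS 1. The others did not share this order: Kcnj8, at 1.89, 0.991 and 0.491 CPM, was highest in PBS 1. Abcc9, at 1.97, 2.23 and 0.911 CPM, was lowest in PBS 3. Myocd had 9 counts in all and Higd1b had none. The part of such cells in the difference was not tested.

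Genes of DNA replication and mitosis differed between the libraries in the same direction. All 32 were expressed and together summed to 999, 475 and 539 CPM. PBS 1 was highest for 30 and stood at least 1.5-fold above both others for 27, beside 3.83% of all protein-coding genes, and its median log2 ratio to the other libraries was 1.24. Mki67, the proliferation antigen, was at 83.9, 29.2 and 38.4 CPM, Top2a, topoisomerase II alpha, at 76.8, 28.3 and 30.6 CPM, and Cdc20, an activator of the anaphase-promoting complex, at 28.8, 8.01 and 10.7 CPM. PBS 1 was clear of the other libraries in all 3 genes. Mcm7, at 47.6, 47.9 and 47.8 CPM, and Cdk2, at 26.0, 30.1 and 26.6 CPM, did not follow. Inhibitors of the cell cycle had no common order. Cdkn1a was at 358, 395 and 536 CPM and Cdkn2a at 36.3, 51.1 and 76.8 CPM, both lowest in PBS 1 and highest in PBS 3, and Cdkn1b was at 103, 97.1 and 112 CPM. Of the 24 genes of cell-cycle entry and arrest PBS 1 was highest for 6, beside 32.7% of all protein-coding genes.

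Promoters of this list are shown because its members differed together, with letters from RefSeq on GRCm38.p6. In the 250 bases before a start, both strands searched, the CCAAT box (CCAAT) was found for 23 of the 27 listed genes with a promoter in the table (85.2%), beside 39.4% of 16802 protein-coding genes. The cell-cycle genes homology region (CHR, TTTGAA) was found for 9 of the 27 (33.3%), beside 16.2%, and both together for the same 9 genes, beside 5.99%. The 150 bases before the start of Cdk1, the mitotic kinase, on the minus strand at chr10:69352913-69353062, and of Cdc20, on the minus strand at chr4:118437344-118437493, hold both. Capitals mark the CHR and CCAAT matches on either strand.
Cdk1: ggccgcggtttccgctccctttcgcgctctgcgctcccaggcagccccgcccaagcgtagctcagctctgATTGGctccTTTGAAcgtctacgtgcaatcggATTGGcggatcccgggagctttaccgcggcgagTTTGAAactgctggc
Cdc20: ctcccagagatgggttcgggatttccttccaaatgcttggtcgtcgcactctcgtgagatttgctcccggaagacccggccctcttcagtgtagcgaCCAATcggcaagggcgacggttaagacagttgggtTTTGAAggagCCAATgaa
In Cdc20 the CHR match begins 18 bases before the start and in Cdk1 the nearer one 15 bases before it. Cdk1 was at 32.8, 14.3 and 18.9 CPM. A match of letters is not evidence of binding.

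A list of 25 genes of sterol synthesis and uptake was drawn up after members of it had been seen among the genes with the largest range, so its counts describe a pattern already noticed. PBS 1 was highest for 24 of the 25, beside 32.7% of all protein-coding genes, and at least 1.5-fold above both others for 21, beside 3.83%. Hmgcs1, which makes the precursor of mevalonate, was at 263, 168 and 132 CPM, and Insig1, which holds the sterol sensor in the endoplasmic reticulum, at 243, 143 and 133 CPM. Both had their highest level in PBS 1 and their lowest in PBS 3. Srebf2, the transcription factor of the pathway, was at 226, 268 and 163 CPM and did not follow. Abca1, the cholesterol exporter, had the opposite order at 75.6, 172 and 246 CPM. A sterol response element (SRE, TCACNCCAC, both strands) was found for 1 of the 17 listed genes with a promoter in the table (5.88%), beside 1.24% of all. That gene was Hmgcs1, whose 150 bases before the start, on the plus strand at chr13:119690201-119690350, carry it in capitals, beginning 137 bases before the start.
Hmgcs1: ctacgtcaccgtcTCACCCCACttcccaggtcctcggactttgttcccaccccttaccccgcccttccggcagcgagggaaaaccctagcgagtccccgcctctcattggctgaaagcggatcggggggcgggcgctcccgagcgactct

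Interferon-stimulated genes, antiviral genes switched on by type I interferon, ran the other way. This list of 31 genes was likewise drawn up after their values had been seen. The 30 with a mean of at least 1 CPM were lowest in PBS 1 in 27 cases and highest in PBS 3 in 28, beside 43.3% and 36.4% of all protein-coding genes, and PBS 1 was at least 1.5-fold below both others for 11, beside 5.19%. Ifit3 was at 65.6, 140 and 220 CPM, Ifit1 at 52.2, 101 and 147 CPM and Bst2, tetherin, at 120, 181 and 189 CPM. Ifi35 was at 37.2, 37.8 and 38.8 CPM and Ifit2 at 60.5, 55.3 and 67.2 CPM, so that not all members differed. The interferon gene Ifnb1 had 3 counts in all. An interferon-stimulated response element (ISRE, both strands) was found for 8 of the 21 listed genes with a promoter in the table (38.1%), beside 3.52% of all. The 150 bases before the starts of Ifit1 (chr19:34640739-34640888, plus strand), Ifit3 (chr19:34583379-34583528, plus strand) and Isg15 (chr4:156200819-156200968, minus strand) are shown with these matches in capitals, which overlap in Isg15.
Ifit1: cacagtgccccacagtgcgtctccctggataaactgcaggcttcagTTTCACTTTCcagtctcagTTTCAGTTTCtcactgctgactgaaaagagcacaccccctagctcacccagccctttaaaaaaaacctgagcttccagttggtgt
Ifit3: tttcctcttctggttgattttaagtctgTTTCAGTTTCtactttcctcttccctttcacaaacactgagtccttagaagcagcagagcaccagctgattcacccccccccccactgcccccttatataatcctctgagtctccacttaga
Isg15: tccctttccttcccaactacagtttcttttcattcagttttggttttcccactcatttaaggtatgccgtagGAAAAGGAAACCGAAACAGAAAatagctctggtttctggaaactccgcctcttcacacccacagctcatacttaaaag

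**Figure D5:**
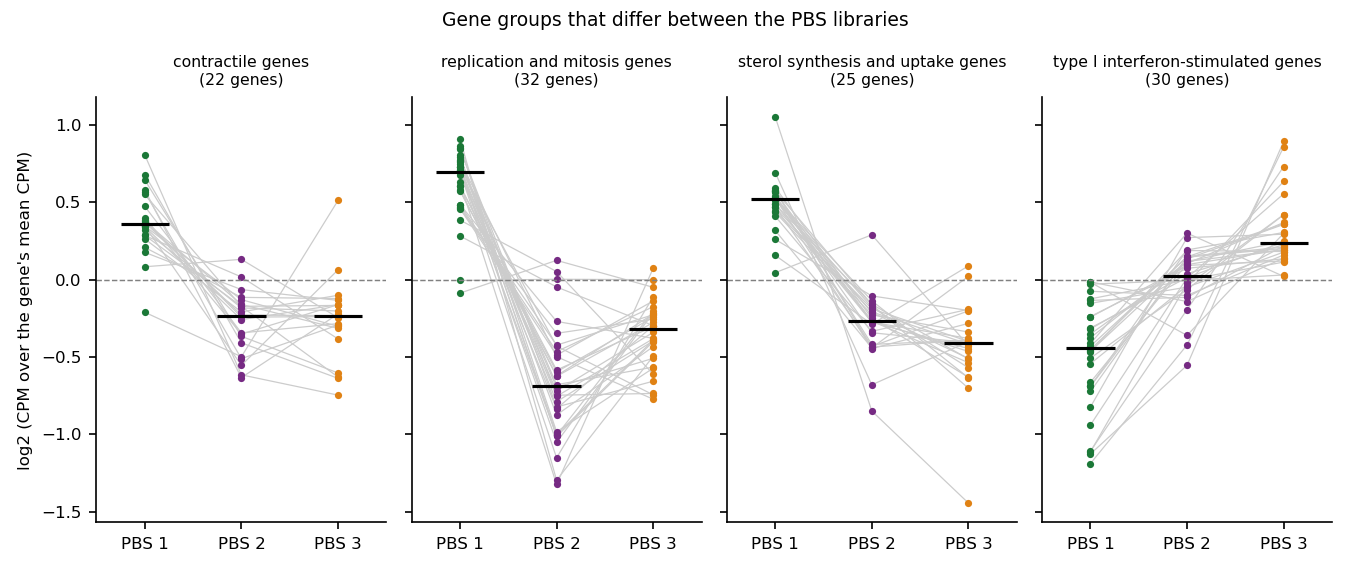
Level of each gene in each PBS library as the log2 ratio to its mean over the 3 libraries (y axis), for 4 lists with a mean of at least 1 CPM; grey lines join the values of a gene and black bars are medians. PBS 1 is highest for 20 of 22 contractile, 30 of 32 replication and 24 of 25 sterol genes, and lowest for 27 of 30 interferon-stimulated genes.

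PBS 2 and PBS 3 had their own differences. The imprinted noncoding RNA Meg3 was at 1605, 4722 and 2239 CPM and H19, another imprinted RNA, at 30.8, 217 and 44.9 CPM, both highest in PBS 2. Dlk1, a neighbour of Meg3, was at 0.822, 4.13 and 4.0 CPM and lowest in PBS 1, and Igf2, a neighbour of H19, had 5 counts in all. In PBS 3, Fosb, Nr4a1 and Dpt were higher than in the others, and Gpc3 and Fbn2 lower. Of 13 genes of stress and RNA quality, among them the noncoding RNAs Malat1 and Neat1, PBS 3 was highest for 8 and PBS 1 for 4. Over all protein-coding genes PBS 3 was highest for 36.4%. Hmox1, heme oxygenase 1, was at 55.8, 69.1 and 114 CPM and Hspa1b, an inducible chaperone, at 74.7, 68.6 and 104 CPM. The chaperone genes Hspa5, at 804, 613 and 521 CPM, and Hsp90aa1, at 479, 329 and 376 CPM, were highest in PBS 1. The nuclear RNA Malat1 was at 1553, 1593 and 1924 CPM. The share of mitochondrial counts did not separate PBS 1, at 1.38%, from PBS 3, at 1.35%. In the lists, genes differing 2-fold or more between libraries made up 30 of 150 matrix genes with a mean of at least 1 CPM (20%) and 39 of 218 receptors (17.9%). They made up 22 of 149 transcription factors (14.8%) and 19 of 93 secreted signals (20.4%), beside 9.69% of all protein-coding genes. In the sets marked by the deposited annotation the counts were 54 of 236 matrix genes, 73 of 414 receptors and 76 of 654 transcription factors. The share fell with level, from 29.1% of protein-coding genes at 1 to 10 CPM to 3.65% at 10 to 100 CPM. The lists were not matched for level.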

How the data were processed

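Expression came as raw counts, whole numbers per gene for every library, as the authors deposited them; 0 columns lacked a sample. Each column carries the group and number of 1 sample title. Per the labels' protocols, RNA was isolated with TRIzol and polyA-selected for TruSeq libraries. The submitters' processing notes name featureCounts, DESeq2, R 4.1.2 and the build GRCm38 (mm10); no aligner, annotation release, strand setting or rule for multi-mapping reads is given in those notes. CPM was computed from all 55487 genes, without further scaling. Exon lengths and exon overlaps came from GENCODE M21, which held 55227 of the gene identifiers; the length was the union of exons. Where symbols were repeated, the protein-coding line with the highest mean was used. The dispersion was estimated with edgeR 4.0.16 in R 4.3.3 and tested on simulated data; Python 3.11.15 was used for the rest. The PBS libraries are 1 group, so no test was made.

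The 54 lists, holding 1046 genes, were chosen with earlier results of these data known, and the sterol and interferon lists after their values were seen. Genes were named by a rule: the 20 highest by CPM and 10 per kilobase, up to 8 per list by level per kilobase and members at or under 3 counts, all contractile genes, the 15 with the largest and 5 with the smallest span, the marker and title genes, and the 10 highest annotated transcription factors. Other genes named were chosen after their values were seen. Some genes that the rule would name are not reported here.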

Additional observations from a re-analysis of the deposited data

How the results depend on the processing

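No paired analysis was possible because the results come from no test and from 1 group. The 55 gene levels recomputed with TMM factors all moved by less than 1 SD. Leaving out 1 of 3 libraries cannot move a mean by 1 SD, so that comparison says nothing about stability; the mean of Acta2 was 1717 CPM, and 1232 CPM without PBS 1. Numbers of expressed genes and list members stayed within 1.5 times under every alternative run. With protein-coding counts as the denominator the 10 and 100 most abundant genes took 7.59% and 22.2%. The number of genes spanning 2-fold was 322 with a mean of at least 10 CPM, 2417 with no filter beyond a count in every library, 3216 at a fold of 1.5 and 352 at a fold of 3. Leaving out 1 PBS library gave 377 to 770 such genes, a median CV of 8.42% to 11.8% and a common coefficient of 0.136 to 0.199; a range over fewer libraries is smaller by construction. PBS 1 stood above both others for 17 contractile genes at a looser fold and 3 at a fold of 2. In analyses added after the data were seen, it stood above for 14 replication and 2 sterol genes at a fold of 2, and below for 22 interferon-stimulated genes at the looser fold and 2 at a fold of 2. Under TMM factors these counts were 10 contractile, 28 replication, 21 sterol and 10 interferon-stimulated genes. Levels between genes depend on the gene model, as the ratio of Col1a1 to Col1a2 shows.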
